A study of Mus musculus with 6 samples.

Results

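The mesothelial marker genes examined here are Msln, Muc16, Upk3b, Upk1b, Lrrn4, Gpm6a, Pdpn, Wt1 and Gata4, followed in tumor-associated macrophages (TAMs) of ID8 tumors. They were chosen by symbol, as the genes of the expression table whose Ensembl ID maps to these names, and each symbol mapped to 1 gene, which gave 9 of the 56980 genes in the table. WT mice and C5aR-/- mice, both on the C57BL/6 background and 6 to 8 weeks old when obtained, were injected intraperitoneally with ID8, a mouse ovarian cancer line that arose from ovarian surface epithelium. Tumors of the abdominal cavity were taken after 2 months, and live CD45+CD11b+Ly6G-F4/80+ cells were sorted by flow cytometry and sequenced, with 3 libraries from WT and 3 from C5aR-/- mice. The mice of both groups received the same tumor line and differed in the C5aR genotype of the host. The labels do not say whether each library is a separate animal, so p-values measure only the spread between these libraries.

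The mesothelium is the single layer of flat epithelial cells that lines the peritoneal cavity and covers its organs. It descends from the coelomic epithelium, keeps the transcription factors of that tissue, and coats its surface with mucins and other glycoproteins that reduce adhesion. The surface epithelium of the ovary is continuous with it, and ovarian carcinomas often carry mesothelin and MUC16, the protein detected as CA125.

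C5ar1, which encodes C5aR, was read first as a check of the labels. Its level in TPM, a share of all transcripts scaled by transcript length, was 86.5, 37.3 and 16.2 in WT TAMs 1, 2 and 3 and 0.38, 0.11 and 0.05 in C5aR-/- TAMs 1, 2 and 3. The C5aR-/- libraries were thus all far below the WT libraries, as labelled. The macrophage label was checked with 12 macrophage and leukocyte genes, all of which passed the filter on low values (1 TPM or more in 3 or more of the 6 libraries). Their summed TPM was 9460, 4006 and 2822 in WT TAMs and 9288, 5373 and 2774 in C5aR-/- TAMs, with Lyz2 the most abundant and Fcgr1 the least by mean TPM over the 6 libraries, by which the genes of the lists below are also ranked. The sums overlapped between the groups and were highest in the library numbered 1 of each. Adgre1, which encodes the sorted antigen F4/80, had 114, 45.8 and 25.4 TPM in WT TAMs and 91.1, 40.1 and 27.9 TPM in C5aR-/- TAMs.

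Beside these macrophage genes all 9 mesothelial marker genes passed the filter, and their summed TPM was 1497, 1618 and 1942 in WT TAMs and 1395, 1425 and 1041 in C5aR-/- TAMs. The 3 C5aR-/- sums lay below the 3 WT sums, the highest C5aR-/- sum being close to the lowest WT sum. Wt1 had a higher TPM than Adgre1 in all 6 libraries, from 2.96 to 17.8 times as high. Lyz2, at 1151 to 5812 TPM, exceeded Wt1 in all 6 libraries, so the order depends on the macrophage gene chosen. The summed TPM of the macrophage genes was above that of the marker genes in every library. In bulk samples of this kind, fewer cells of a type and less RNA per cell cannot be told apart, and which cells the transcripts came from was not tested.

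**Figure D1:**
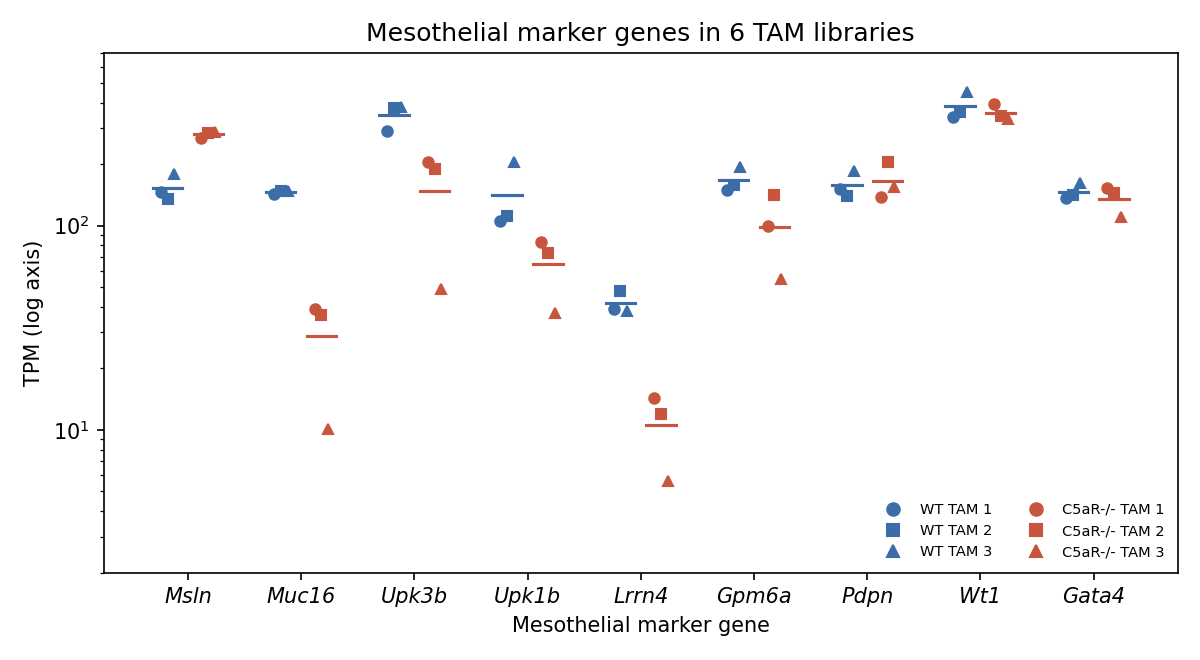
TPM (log axis) of the 9 mesothelial marker genes in each of 6 libraries, with WT TAMs in blue, C5aR-/- TAMs in red, a symbol shape for each library number and a horizontal line at the mean of each group. Msln is higher in all 3 C5aR-/- libraries, Muc16, Upk3b, Upk1b, Lrrn4 and Gpm6a are lower in all 3, and Pdpn, Wt1 and Gata4 overlap.

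Genes were compared between WT and C5aR-/- TAMs with limma on log2(TPM + 1) over the 14776 genes that passed the filter, and log2 differences below are C5aR-/- minus WT on that scale, where changes of genes with low TPM appear too small. At an adjusted p below 0.05 and a difference of 2-fold or more, limma called 0 of the 9 marker genes and 0.0% of all genes tested. C5ar1, the gene knocked out, also missed this rule, with a log2 difference of -5.04 (limma, adjusted p = 0.0666). That was the smallest adjusted p of the fit. Without C5aR-/- TAM 1 that rule called 356 of all genes tested, and without C5aR-/- TAM 2 or 3 it called 1 and 3. Of the 9, Lrrn4 and Muc16 passed without C5aR-/- TAM 1, and Muc16 passed without C5aR-/- TAM 3. At an unadjusted p under 0.05 without a fold threshold, 6 of 9 passed, against 14.4% of all genes. With the fold threshold, 4 of 9 were lower in C5aR-/- TAMs, namely Muc16, Lrrn4, Upk3b and Upk1b, against 2.84% of all genes, and 0 of 9 were higher, against 2.13%. Groups did not overlap for 5 lower genes, against 12.5% of all genes, and for 1 higher gene, against 8.84%. The 9 genes were chosen with earlier results of these data known, so their shares are a description and not a test. The shares among the 9 genes were above those over all genes for lower values, and the median log2 difference was -0.85 over the 9 genes and -0.05 over all genes tested. Without WT TAM 3 or without C5aR-/- TAM 3, 2 of the 9 were lower by this rule, and the median without C5aR-/- TAM 3 was -0.48.

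Msln and Muc16 encode a pair of cell surface proteins that bind each other. Mesothelin is held to the membrane by a lipid anchor, and its precursor also releases a secreted fragment. Msln lies on chromosome 17 (chr17:25748613-25754378, minus strand, GRCm38). Its TPM was 145, 135 and 179.6 in WT TAMs and 268, 284 and 288 in C5aR-/- TAMs. All 3 C5aR-/- libraries were above all 3 WT libraries, and Msln was the only 1 of the 9 genes for which this was so. The means were 153 ± 23.5 and 280.0 ± 10.8 (SD, n = 3), and the log2 difference was 0.88 with a standard error of 0.14 and a 95% interval of 0.53 to 1.22 (limma, adjusted p = 0.0922). Without C5aR-/- TAM 1 the adjusted p was 0.0466, in a range of 0.0466 to 0.413 over the alternatives run, and the fold change stayed under 2.

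Muc16 encodes the very large membrane mucin that mesothelin binds, and its gene spans chr9:18495455-18674530 on the minus strand. Its TPM was 142, 147 and 148 in WT TAMs and 39.2, 36.6 and 10.2 in C5aR-/- TAMs. The WT libraries were nearly equal, every C5aR-/- library was below them, and C5aR-/- TAM 3 was the lowest. Means were 146 ± 3.23 and 28.6 ± 16.1 (SD, n = 3), so that the WT mean was 5.09 times as high. The log2 difference, -2.52 with a standard error of 0.48, had the greatest size among the 9 genes (limma, adjusted p = 0.111). Its adjusted p was 0.0407 without C5aR-/- TAM 1 and 0.0416 without C5aR-/- TAM 3, where the log2 difference was -1.92, in a range of 0.0407 to 0.425 over the alternatives run. Muc16 took a place between the 39.8 and 93.7 percentiles of the tested genes of a library, where Msln lay between 93.0 and 97.0.

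The 2 partners were also set against each other within each library. The ratio of Msln to Muc16 TPM was 1.02, 0.914 and 1.21 in WT TAMs and 6.83, 7.76 and 28.4 in C5aR-/- TAMs. In WT TAMs the 2 genes had about the same TPM, and in C5aR-/- TAMs Msln exceeded Muc16 in every library. Set against the epithelial keratin Krt8 of the same library, Muc16 was at 0.306 to 0.323 in WT and at 0.0137 to 0.0586 in C5aR-/- TAMs, and these ranges were apart, as were those of Wt1 to Krt8 (0.728 to 0.981 and 0.446 to 0.548), although Wt1 itself overlapped. For Msln the same ratio was 0.296 to 0.390 in WT and 0.354 to 0.455 in C5aR-/- TAMs, and these ranges overlapped. Krt8 itself had 465, 455 and 460.2 TPM in WT TAMs and 758, 624 and 743 TPM in C5aR-/- TAMs, higher in all 3 C5aR-/- libraries. Krt18, at 457 to 535 TPM in WT and 479 to 697 TPM in C5aR-/- TAMs, overlapped, as did Krt19. Ratios to these keratins were not taken, so the ranges hold for Krt8 alone and can differ with another keratin.

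The uroplakins are membrane proteins first known from the umbrella cells of the bladder, where a tetraspanin uroplakin pairs with a partner that crosses the membrane once. Upk1b is the tetraspanin that pairs with Upk3a or Upk3b, and Upk3b is the member known from mesothelium. Upk3b (chr5:136038496-136046487, plus strand) had 291, 377 and 379.7 TPM in WT TAMs and 206, 188 and 48.8 TPM in C5aR-/- TAMs. No C5aR-/- library reached the lowest WT library, and C5aR-/- TAM 3 stood far below the other C5aR-/- libraries. Its means were 349 ± 50.8 and 148 ± 86.1 (SD, n = 3), with a log2 difference of -1.48, a standard error of 0.53 and a 95% interval of -2.75 to -0.20 (limma, adjusted p = 0.293). The unadjusted call was lost without WT TAM 2 (log2 difference -1.42), WT TAM 3 (-1.41) or C5aR-/- TAM 3 (-0.81).

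Upk1b (chr16:38773184-38800328, minus strand) had 105, 112 and 205 TPM in WT TAMs and 83.5, 73.3 and 37.5 TPM in C5aR-/- TAMs. The groups did not overlap, and WT TAM 3 stood above the other WT libraries. The log2 difference was -1.12 with a standard error of 0.38 and a 95% interval of -2.01 to -0.22 (limma, adjusted p = 0.266), and without WT TAM 3 or C5aR-/- TAM 3 it was -0.81 and -0.77, with the unadjusted call lost. In a fit with a block for the library number the difference stayed at -1.12 and the call was lost. Within libraries the ratio of Upk3b to Upk1b was 1.85 to 3.38 in WT and 1.30 to 2.57 in C5aR-/- TAMs, and these ranges overlapped. The other uroplakins were at or near 0. Upk2 and Upk3a were listed at 0 in all 6 libraries, Upk1a had at most 1.98 TPM and Upk3bl at most 0.80 TPM, and none of the 4 passed the filter.

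Lrrn4 and Gpm6a were named for their place in the nervous system and are also markers of mesothelium. Lrrn4, a membrane protein with leucine-rich repeats (chr2:132868305-132880891, minus strand), had 39.0, 48.1 and 38.0 TPM in WT TAMs and 14.3, 11.9 and 5.59 TPM in C5aR-/- TAMs. Every WT library was well above every C5aR-/- library. The log2 difference was -1.96 with a standard error of 0.32 and a 95% interval of -2.73 to -1.18 (limma, adjusted p = 0.093). Without C5aR-/- TAM 1 the adjusted p was 0.0274, in a range of 0.0274 to 0.413 over the alternatives run.

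Gpm6a, a membrane protein with 4 spans that shapes filopodia (chr8:54954843-55060871, plus strand), had 149.9, 158 and 194 TPM in WT TAMs and 100.03, 141 and 54.8 TPM in C5aR-/- TAMs. The groups did not overlap, but the gap between WT TAM 1 and C5aR-/- TAM 2 was small beside the spread among the C5aR-/- libraries. The log2 difference was -0.85 with a standard error of 0.33 and a 95% interval of -1.64 to -0.05 (limma, adjusted p = 0.322). Without C5aR-/- TAM 3 it was -0.48, and without C5aR-/- TAM 2 it was -1.15, and only in that fit did it pass the unadjusted p together with the fold threshold.

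Pdpn encodes podoplanin, a heavily glycosylated membrane protein of mesothelium, lymphatic endothelium and some fibroblasts and macrophages, and the ligand of the platelet receptor CLEC-2. Pdpn (chr4:143267431-143299564, minus strand) had 150.4, 139.7 and 185 TPM in WT TAMs and 138, 204 and 155 TPM in C5aR-/- TAMs. Both the highest and the lowest library were C5aR-/- libraries. Its log2 difference was 0.06 with a 95% interval of -0.40 to 0.51 (limma, adjusted p = 0.92), and leaving out WT TAM 2 or C5aR-/- TAM 2 turned the sign, to -0.03 and -0.10.

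Of 10 genes whose products bind or assemble with those of the marker genes, 6 passed the filter. Groups did not overlap for 3 of the 6, all higher in C5aR-/- TAMs, against 8.84% of all genes. At the unadjusted p with the fold threshold 1 was higher and 0 were lower, against 2.13% and 2.84% of all genes. The higher gene was Lgals3, a galectin that binds surface glycans, with 108, 81.9 and 61.5 TPM in WT TAMs and 277, 215 and 242 TPM in C5aR-/- TAMs. Clec1b, which encodes CLEC-2, was low in every library, with 0.43, 0.02 and 0.28 TPM in WT TAMs and 2.02, 1.22 and 1.04 TPM in C5aR-/- TAMs, apart between the groups, and it passed the filter through the C5aR-/- libraries alone. Cd9, a tetraspanin that binds podoplanin, was also apart, at 418 to 444 TPM in WT and 490.5 to 613 TPM in C5aR-/- TAMs. Cd44, Msn and Lgals1 overlapped between the groups, and Lgals1 was the most abundant gene of this list, at 5818 to 8073 TPM.

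Wt1 and Gata4 encode transcription factors of the coelomic epithelium that are needed for the development of the gonads and the heart. Wt1 (chr2:105126529-105173616, plus strand) had 338, 361 and 451 TPM in WT TAMs and 395, 342 and 331 TPM in C5aR-/- TAMs. The groups overlapped, and every library lay between the 97.3 and 98.1 percentiles of the tested genes. The log2 difference was -0.10 with a 95% interval of -0.48 to 0.28 (limma, adjusted p = 0.81), and without WT TAM 3 it was 0.02.

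Gata4 (chr14:63198922-63271692, minus strand) had 136, 140.4 and 161 TPM in WT TAMs and 152, 144 and 110.0 TPM in C5aR-/- TAMs. The groups overlapped, and C5aR-/- TAM 3 was the lowest. Its log2 difference was -0.12 with a 95% interval of -0.50 to 0.27 (limma, adjusted p = 0.779), and without C5aR-/- TAM 3 it was 0.03. The 95% intervals of Wt1, Gata4 and Pdpn did not reach the log2 differences estimated for Muc16 and Lrrn4. A test of the difference between genes was not run.

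Levels were also set against Wt1 of the same library. Muc16 stood at 0.328 to 0.420 of the Wt1 TPM in WT and at 0.0306 to 0.107 in C5aR-/- TAMs. For Lrrn4 the ratio to Wt1 was 0.0842 to 0.133 in WT and 0.0169 to 0.0363 in C5aR-/- TAMs. The ratio of Upk3b to Wt1 was 0.841 to 1.04 in WT and 0.147 to 0.551 in C5aR-/- TAMs. Upk1b and Gpm6a were also lower relative to Wt1 in all 3 C5aR-/- libraries, Msln was higher, and the ratios of Pdpn and Gata4 to Wt1 overlapped.

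Of 16 transcription regulators of the coelomic epithelium and its derivatives, 9 passed the filter. Of these, 1 was lower and 0 were higher at the unadjusted p with the fold threshold, against 2.84% and 2.13% of all genes. The median log2 difference of all 16 was 0.00, which includes the 7 genes that did not pass the filter. The lower gene was Emx2, a homeobox factor of the urogenital epithelium, with 10.7, 12.0 and 5.79 TPM in WT TAMs and 0.75, 2.69 and 4.71 TPM in C5aR-/- TAMs. Gata6, a GATA factor of mesothelium and also of large peritoneal macrophages, was the most abundant of the list, at 91.1 to 116 TPM in WT and 86.8 to 104 TPM in C5aR-/- TAMs, which overlapped. Zfpm2, a cofactor of Gata4, was at 28.1 to 29.1 TPM in WT and 32.0 to 36.1 TPM in C5aR-/- TAMs, apart between the groups by a log2 difference of 0.24. Tcf21, a factor of the epicardium, was listed at 0 in all 6 libraries, and 4 of the 16 genes were under 1 TPM in all 6.

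TPM is scaled by transcript length, so levels can be set side by side between genes. In WT TAMs the order by mean TPM was Wt1, Upk3b, Gpm6a, Pdpn, Msln, Gata4, Muc16, Upk1b and Lrrn4. Between neighbours in this order, all 3 libraries of the higher gene exceeded all 3 of the lower only for Upk3b over Gpm6a and for Upk1b over Lrrn4. The 6 genes from Gpm6a to Upk1b had means between 141 and 167 TPM and overlapped with their neighbours among these 6. In C5aR-/- TAMs the order was Wt1, Msln, Pdpn, Upk3b, Gata4, Gpm6a, Upk1b, Muc16 and Lrrn4, and only Wt1 over Msln and Msln over Pdpn were apart. Msln moved from the fifth place to the second and Muc16 from the seventh to the eighth.

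Libraries of the same group differed too. Of the 9 genes, 8 had their highest WT value in WT TAM 3, and 7 had their lowest C5aR-/- value in C5aR-/- TAM 3. The spread of Upk3b within C5aR-/- TAMs was 4.22-fold from lowest to highest, that of Muc16 was 3.86-fold, that of Wt1 was 1.19-fold and that of Msln was 1.08-fold.

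A list of 20 other genes known to be high in peritoneal mesothelium was examined in the same way. Of these, 19 passed the filter, and all 19 had a lower mean log2(TPM + 1) in C5aR-/- TAMs, as did 8206 of the 14776 genes tested. At the unadjusted p with the fold threshold 10 of 19 were lower, against 2.84% of all genes, and 0 were higher, against 2.13%, and at the adjusted p limma called 0. Cdh11, which is among the 10, was under 1 TPM in all 3 C5aR-/- libraries and passed the filter through the WT libraries, and with a minimum of 5 TPM the count was 9. Groups did not overlap for 10 of the 19, all of them lower in C5aR-/- TAMs, against 12.5% of all genes, and the median log2 difference of the 20 genes was -1.08. The summed TPM of the list was 4433, 4801 and 5355 in WT TAMs and 2298, 3146 and 1953 in C5aR-/- TAMs, with no overlap. This list too was chosen with earlier results of these data known, so its shares are a description and not a test.

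Igfbp5, a binding protein of insulin-like growth factors, had 603, 866 and 843 TPM in WT TAMs and 145, 148 and 92.0 TPM in C5aR-/- TAMs, a log2 difference of -2.59 (limma, adjusted p = 0.0666). Aldh1a1, which oxidizes retinaldehyde to retinoic acid, had 818, 883 and 468 TPM in WT TAMs and 133, 194 and 110 TPM in C5aR-/- TAMs. Both genes were lower in all 3 C5aR-/- libraries. Aldh1a2, an enzyme of the same reaction that is expressed in embryonic coelomic epithelium, was at 28.9 to 41.4 TPM in WT and 3.60 to 11.9 TPM in C5aR-/- TAMs. Podxl, a sialomucin of coelomic epithelium and podocytes, was at 264 to 344 TPM in WT and 70.4 to 159 TPM in C5aR-/- TAMs. Slpi, a secreted protease inhibitor, was at 49.0 to 174 TPM in WT and 6.09 to 37.3 TPM in C5aR-/- TAMs. Has1, a hyaluronan synthase, overlapped by a small margin, at 9.81 to 17.6 TPM in WT and 1.56 to 9.89 TPM in C5aR-/- TAMs. The gene of the list with the highest mean TPM, Krt19, overlapped between the groups at 831 to 1102 and 433 to 1001 TPM. Calb2, which encodes calretinin, a protein by which mesothelium is recognized in histology, was listed at 0 in all 6 libraries.

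**Figure D2:**
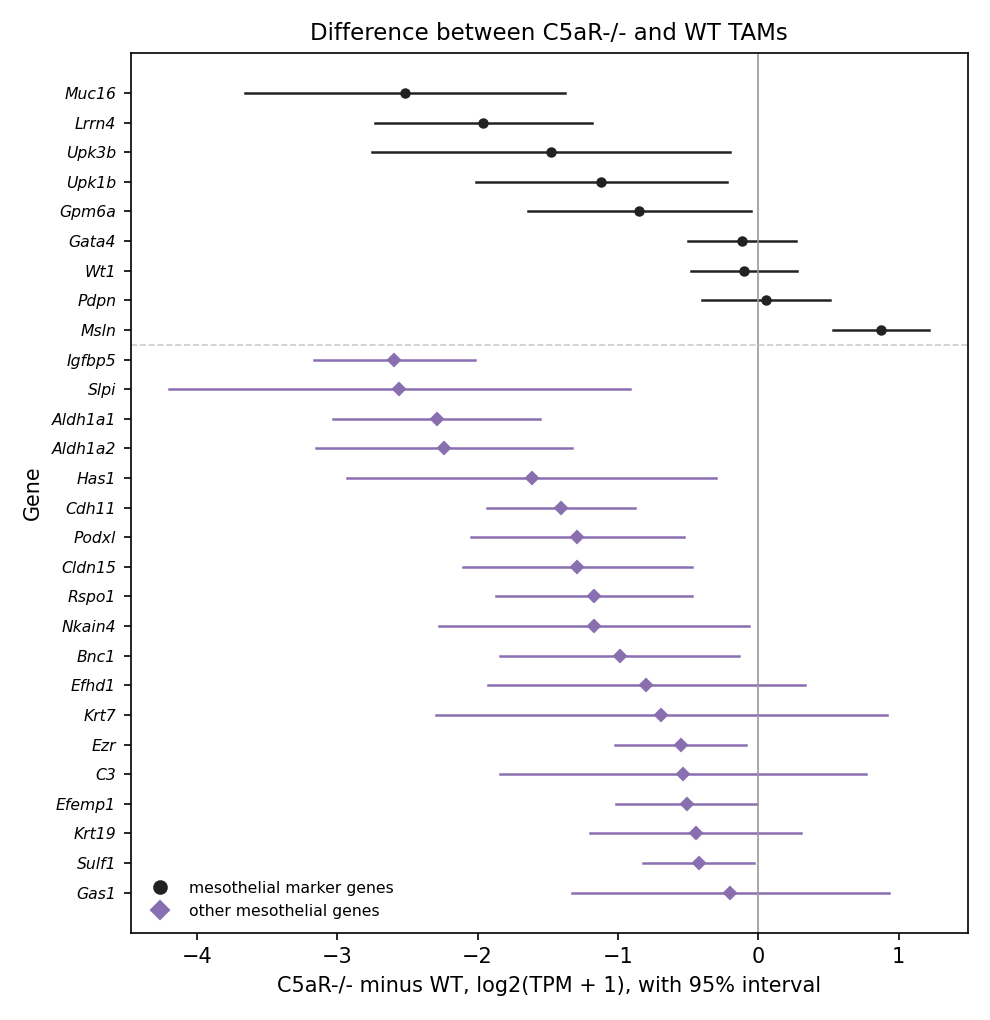
Log2 difference of C5aR-/- minus WT TAMs on log2(TPM + 1), with its 95% interval from limma, for the 9 mesothelial marker genes (circles) and the 19 tested genes of the list of other mesothelial genes (diamonds). Of the 9 marker genes, Muc16 (-2.52) and Lrrn4 (-1.96) lie furthest below 0. Wt1, Gata4 and Pdpn have intervals across 0, and Msln (0.88) lies above 0. Of the other mesothelial genes, Igfbp5 (-2.59), Slpi (-2.56), Aldh1a1 (-2.29) and Aldh1a2 (-2.24) lie furthest below 0. Efhd1, Krt7, Krt19, Gas1 and C3 of that list have intervals across 0.

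Marker lists of other cell types were read beside these values. Of 13 epithelial genes, among them Krt7 and Krt19 of the list of other mesothelial genes, 10 passed the filter. Cldn3 was higher and Amhr2 lower at the unadjusted p with the fold threshold, against 2.13% and 2.84% of all genes. The summed TPM of the 13 genes was 3581, 4060 and 4253 in WT TAMs and 3966, 3808 and 2963 in C5aR-/- TAMs, which overlapped. Lgals7 was the most abundant and Cldn7 the least, at 0.37 TPM or less, and Epcam was at 2.09 to 6.33 TPM. Of the keratins, Krt8, Krt18 and Krt19 were at 433 TPM or more in all 6 libraries, and Krt7 was at 1.31 to 16.1 TPM.

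Pdpn is also a gene of lymphatic endothelium and of fibroblasts, so their markers were read in the same libraries. Prox1, the factor that defines lymphatic endothelium, was at 0.04 TPM or less in every library, and 3 of 6 lymphatic genes were under 1 TPM in all 6. The summed TPM of the 6 was 144, 50.0 and 45.9 in WT TAMs and 80.9, 19.6 and 4.88 in C5aR-/- TAMs. Lyve1, known also from macrophages, had the highest mean, with 126 TPM in WT TAM 1, and was below Flt4 in WT TAM 3 and C5aR-/- TAM 3. The 10 fibroblast genes summed to 408, 471 and 608 TPM in WT TAMs and 558, 441 and 474 TPM in C5aR-/- TAMs, with Dcn the highest by mean and Dpt the lowest. Col1a1 was at 3.52 to 10.8 TPM in WT TAMs and at 1.21, 43.3 and 236 TPM in C5aR-/- TAMs. Of the 5 tested fibroblast genes 1, Col1a2, was lower at the unadjusted p with the fold threshold, against 2.84% of all genes.

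The 9 genes of vascular endothelium summed to 122, 125 and 156 TPM in WT TAMs and 133, 118 and 87.2 TPM in C5aR-/- TAMs, mostly Esam, with Pecam1 at 6.84 to 12.5 TPM and Tie1 at 0.08 TPM or less. Wt1 and Gata4 are also genes of granulosa and Sertoli cells. Of 8 gonadal genes, Cyp19a1 and Fshr were listed at 0 in all 6 libraries, and the sum was 120, 148 and 111 TPM in WT TAMs and 76.7, 144 and 155 TPM in C5aR-/- TAMs. Inha had the highest mean of them, at 54.0 to 75.9 TPM in WT and 19.4 to 35.9 TPM in C5aR-/- TAMs. It was the 1 gene of the 5 tested that was lower at the unadjusted p with the fold threshold, against 2.84% of all genes. Inhba was at 0.88 to 3.46 TPM in WT TAMs and at 0.49, 57.8 and 85.0 TPM in C5aR-/- TAMs, above Inha in 2 of the 3.

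Lists of other leukocytes were read in the same way. Of 5 mast cell genes, Cpa3, Cma1, Mcpt4 and Tpsb2 were lower and Kit higher at the unadjusted p with the fold threshold, against 2.84% and 2.13% of all genes. Cpa3, Mcpt4 and Tpsb2 reached 1 TPM in fewer than 3 C5aR-/- libraries, as did Emx2 above and Cxcr2 below, so that the filter let them in through the WT libraries, which favours a lower call. The sum of the 5 mast cell genes was 101, 82.6 and 136 TPM in WT TAMs and 59.4, 73.6 and 87.8 TPM in C5aR-/- TAMs, which overlapped. Without Kit, the gene with the highest mean, the sum was 72.2, 49.5 and 107 TPM in WT TAMs and 4.75, 5.57 and 2.43 TPM in C5aR-/- TAMs. Mcpt4, the least abundant, was at 12.0 to 22.4 TPM in WT TAMs and at 0.25, 0.00 and 0.00 TPM in C5aR-/- TAMs. The 5 neutrophil genes summed to 919, 2269 and 606 TPM in WT TAMs and 196, 375 and 26.4 TPM in C5aR-/- TAMs. S100a9 was the most abundant and Ly6g, which the gate selects against, the least. At the unadjusted p with the fold threshold 3 of 4 tested genes (S100a8, S100a9 and Cxcr2) were lower, against 2.84% of all genes. The 8 genes of large peritoneal macrophages summed to 1622, 501 and 281 TPM in WT TAMs and 253, 251 and 111 TPM in C5aR-/- TAMs. These sums, like those of the neutrophil genes, were lower in all 3 C5aR-/- libraries. Of the 8 genes of large peritoneal macrophages, 4 (Icam2, Timd4, Alox15 and Prg4) were lower by this rule, against 2.84% of all genes. Prg4 had the highest mean and F5 the lowest, and Gata6 exceeded Prg4 in WT TAM 3 and in all 3 C5aR-/- libraries. By the same rule limma called 0 of 12 macrophage, 0 of 6 T cell, 0 of 4 B cell, 0 of 3 smooth muscle and pericyte, 0 of 9 mesenchymal transition and 0 of 7 housekeeping genes tested. Genes of these lists other than the most and least abundant and the defining markers were named after their values were seen. The part of these cell types in the lower values of Muc16, Lrrn4, Upk3b and Upk1b was not tested.

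**Figure D3:**
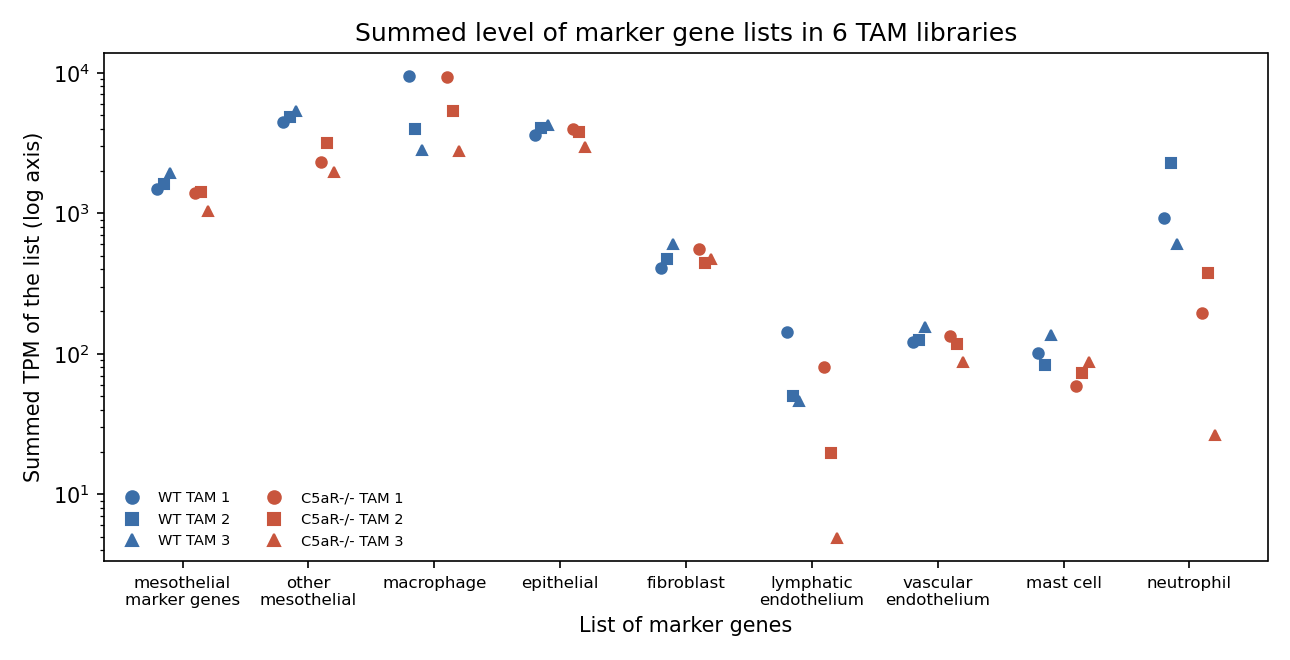
Summed TPM (log axis) of 9 lists of marker genes in each of 6 libraries, with WT TAMs in blue, C5aR-/- TAMs in red and a symbol shape for each library number. The sums of the mesothelial marker genes (1041 to 1942 TPM), of the other mesothelial genes and of the neutrophil genes are lower in all 3 C5aR-/- libraries, and those of the macrophage, epithelial and fibroblast genes overlap.

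Genes whose profile was most like the 9 were sought among the 9247 other tested genes with a mean TPM of 10 or more, by the Pearson correlation of log2(TPM + 1) over the 6 libraries. The mean log2(TPM + 1) of the 9 genes was 7.18, 7.26 and 7.51 in WT TAMs and 6.79, 6.81 and 5.95 in C5aR-/- TAMs. The 5 most alike genes were Fgf18 (r = 0.996), Lbp (0.995), Mgat3 (0.993), Enpp5 (0.992) and Scel (0.992). Scel, which encodes the epithelial protein sciellin, had 27.5, 33.2 and 43.2 TPM in WT TAMs and 14.5, 13.4 and 4.74 TPM in C5aR-/- TAMs, highest in WT TAM 3 and lowest in C5aR-/- TAM 3 like the mean of the marker genes. For Wt1, the member with the highest mean TPM, the 4 most alike were Tcea3 (r = 0.994), Mat2b (0.992), Hprt (0.986) and Pik3r4 (0.984), whose groups overlapped as those of Wt1 did. Hprt, a housekeeping gene, had 117, 123 and 148 TPM in WT TAMs and 130.4, 119.8 and 111 TPM in C5aR-/- TAMs. These correlations describe 6 libraries that share a difference between 2 groups.

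Because Muc16, Lrrn4 and Upk3b were lower together, their promoters are shown. RefSeq sequences (GRCm38.p6) were used for 5 of the 9 genes, Lrrn4, Pdpn, Upk3b, Gpm6a with 2 starts, and Muc16, over the 200 bases from 250 to 51 bases before the start. On both strands, the letters searched for GATA factors were AGATAA or else TGATAA, and those for WT1 were GCGTGGGAG or else GCGGGGGCG. The half-site AGGTCA of nuclear receptors, such as those of retinoic acid, and the letters GGAATG of TEAD factors were searched in the same way. Among the 32851 promoter windows of this length, 14.2% held the GATA letters, 1.93% the WT1 letters, 11.4% AGGTCA and 10.7% GGAATG. The windows below, written from 5′ to 3′ on the strand of the gene, have each match in capitals. They lie at chr2:132880913-132881112 (minus strand), chr5:136038246-136038445 (plus strand) and chr9:18674654-18674853 (minus strand).
Lrrn4: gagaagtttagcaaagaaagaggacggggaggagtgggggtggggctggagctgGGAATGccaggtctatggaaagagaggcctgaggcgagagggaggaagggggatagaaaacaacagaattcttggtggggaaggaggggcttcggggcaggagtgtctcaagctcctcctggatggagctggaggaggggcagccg
Upk3b: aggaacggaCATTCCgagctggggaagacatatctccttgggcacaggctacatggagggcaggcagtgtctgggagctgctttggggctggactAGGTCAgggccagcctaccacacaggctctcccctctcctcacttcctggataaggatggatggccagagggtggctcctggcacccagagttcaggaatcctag
Muc16: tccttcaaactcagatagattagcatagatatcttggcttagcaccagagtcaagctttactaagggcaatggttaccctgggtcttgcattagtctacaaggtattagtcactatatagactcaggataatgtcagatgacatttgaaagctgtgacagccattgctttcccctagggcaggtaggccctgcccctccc
The Lrrn4 window held GGAATG from its base 55. The Upk3b window held GGAATG on the opposite strand, read as CATTCC from base 10, and AGGTCA from base 96. The Muc16 window held none of the letters searched. Of the 6 windows of the 5 genes, 3 held GGAATG (Lrrn4, Upk3b and 1 of the Gpm6a starts), 1 held AGGTCA, and 0 held the GATA or WT1 letters. A match is a description of the sequence, and binding was not measured.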

How the data were processed

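The authors deposited TPM values per gene, which sum to 1000000 in each library, and 2 columns of group means that were not used. The submitters' processing notes name fastp, HISAT2, StringTie, RSEM and DESeq2 and the build mm10, with no versions. TPM keeps no depth, so the counting error is unknown, and a value of 0 can be a failed estimate. Symbols came from GENCODE M21, which named 52073 of 56980 genes, and coordinates from its GRCm38 annotation, the build named mm10. Of several IDs with 1 symbol, that of highest mean TPM was kept.

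Log2(TPM + 1) was compared with limma 3.58.1 in R 4.3.3 (eBayes with trend, Benjamini-Hochberg over all 14776 genes that reached 1 TPM in 3 or more libraries), after testing on simulated data. Tables were made with pandas 2.3.3 and numpy 2.4.6 under Python 3.11.15. Named genes were the 9 members, C5ar1, genes of the lists of other mesothelial genes, coelomic factors and binding partners, the most and least abundant gene of each other list with a few defining markers, and the most alike genes by correlation. The members, lists and motifs were chosen with earlier results of these data known. Other settings tried were eBayes without trend, scaling by median ratios, quantile normalization, a block for the replicate number, a pseudocount of 0.1, a minimum of 5 TPM or none, and each library left out.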

Additional observations from a re-analysis of the deposited data

How the results depend on the processing

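Limma called 0 genes at an adjusted p below 0.05 and a difference of 2-fold or more, and 2133 at an unadjusted p under 0.05 without a fold threshold. The first count was 2 with eBayes without trend and lay between 0 and 356 when single libraries were left out, the highest without C5aR-/- TAM 1. At that unadjusted p with the 2-fold threshold the count of 733 was 475 with a minimum of 5 TPM, which tests fewer genes, and lay between 567 and 1266 when single libraries were left out. By direction it was 314 higher and 419 lower, which became 619 and 647 without C5aR-/- TAM 1 and 386 and 371 with quantile normalization. The count of marker genes lower by the same rule, 4, was from 2 to 5 in those fits, and that of other mesothelial genes, 10, was from 7 to 11.

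The 9 log2 differences kept their sign in 113 of 117 values under the alternatives. The other 4 came from leaving out 1 library, where Wt1 ranged from -0.19 to 0.021, Pdpn from -0.10 to 0.18, also negative (-0.030) without WT TAM 2, and Gata4 from -0.21 to 0.025. The cause was not tested. The median over the 9 genes was from -1.15 to -0.48 in these fits, and from -0.86 to -0.80 with the other pseudocount or scaling. With quantile normalization the median of all genes moved by 0.04.

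Libraries of the same number were not treated as paired in the main fit. The correlations of their deviations from the group means were 0.186, -0.0112 and 0.272. For libraries of different numbers they ran from -0.23 to 0.0934. These values do not show whether the libraries were paired. A fit with the replicate block called 0 genes at the adjusted and 811 at the unadjusted threshold, where 3 of the 9 marker genes (Upk1b was lost) and 9 of the other mesothelial genes were lower. Depth is unknown, so what it limits at low TPM was not tested.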
